A study of Sus scrofa with 4 samples.

Results

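The expression of 9 genes of cell division was followed in the thymus of IL2RG KO and WT pigs. They were AURKA, AURKB, CDK1, PBK, PKMYT1, BLM, CCNB1, TOP2A and BIRC5, and they were taken by name. Every array probe whose RefSeq accession belongs to one of these pig genes was included. This gave 19 probes of 9 genes, out of 6684 probes of 3020 genes that could be named. Total thymus RNA of 2 KO and 2 WT samples, all from Minnesota miniature swine, had been labelled with Cy3 and hybridised to Agilent porcine arrays, 1 sample per array. The labels give the KO genotype as IL2RG+/- and the WT genotype as wildtype, with no treatment and no age. According to the methods, the KO animals were clones made by nuclear transfer from TALEN-edited cell colonies, in which 1 allele was disrupted. Most such animals had no thymus, and the RNA came from those with a rudimentary one. The labels do not say whether the WT pigs were clones. Each of the 2 slides held 1 array of either genotype, the first KO replicate 1 with WT replicate 2 and the second KO replicate 2 with WT replicate 1.

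A cell that divides copies its DNA in S phase, passes through G2 and separates its chromosomes in mitosis. Entry into mitosis depends on a kinase, CDK1, that is active only when a B-type cyclin is bound to it. Genes that act in G2 and mitosis are transcribed periodically, so that their mRNA is abundant in dividing cells and low in resting ones. In a normal thymus most division takes place among immature thymocytes, which proliferate after a successful rearrangement of the T-cell receptor beta chain and before they become resting double-positive cells.

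On these arrays the brightness of a spot follows the amount of the matching mRNA. Signals are given here on a log2 scale after subtraction of the 75th percentile of the array, so that a value of 0 is the brightness of that percentile, and log2 fold changes are KO minus WT. Levels of different probes are not comparable, because probes differ in how well they bind. A probe was called lower or higher at an adjusted p under 0.05 in limma with at least a 2-fold change. As a check of the labels, the brighter probe of IL2RG itself had signals of -3.14 and -3.27 in KO against -0.12 and 0.53 in WT. It fell by 3.41 on the log2 scale (standard error, SE, 0.27, adjusted p = 0.00255 in limma), and the other IL2RG probe was called lower too. In KO 74.5% and 73.5% of the spots were well above background, compared to 67.9% and 68.1% in WT, and no spot was saturated.

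All 9 genes, which were chosen with earlier results of these data known, were lower in KO thymus. All 19 probes were called lower, whereas 13.0% of the 31959 probes tested were called lower and 21.0% were called higher. When arrays were scaled to their median, these counts over all probes turned from 4150 lower and 6726 higher to 6365 lower and 5802 higher. At 14 of the 19 probes the fall was at least 4-fold, compared to 4.10% of the tested probes. At every one of the 19 probes both KO arrays lay below both WT arrays, a pattern found at 40.9% of tested probes. With 1 probe per gene, the one with the highest mean signal, the median log2 fold change of the 9 genes was -2.47, and it was 0.00 over the 2702 named genes tested. The genes fell by between 1.72 (AURKB) and 3.08 (PBK) on the log2 scale. All 19 probes were well above background on all 4 arrays, so that no fold change is a bound. In a bulk sample, fewer dividing cells and less of these mRNAs per cell cannot be told apart.

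**Figure D1:**
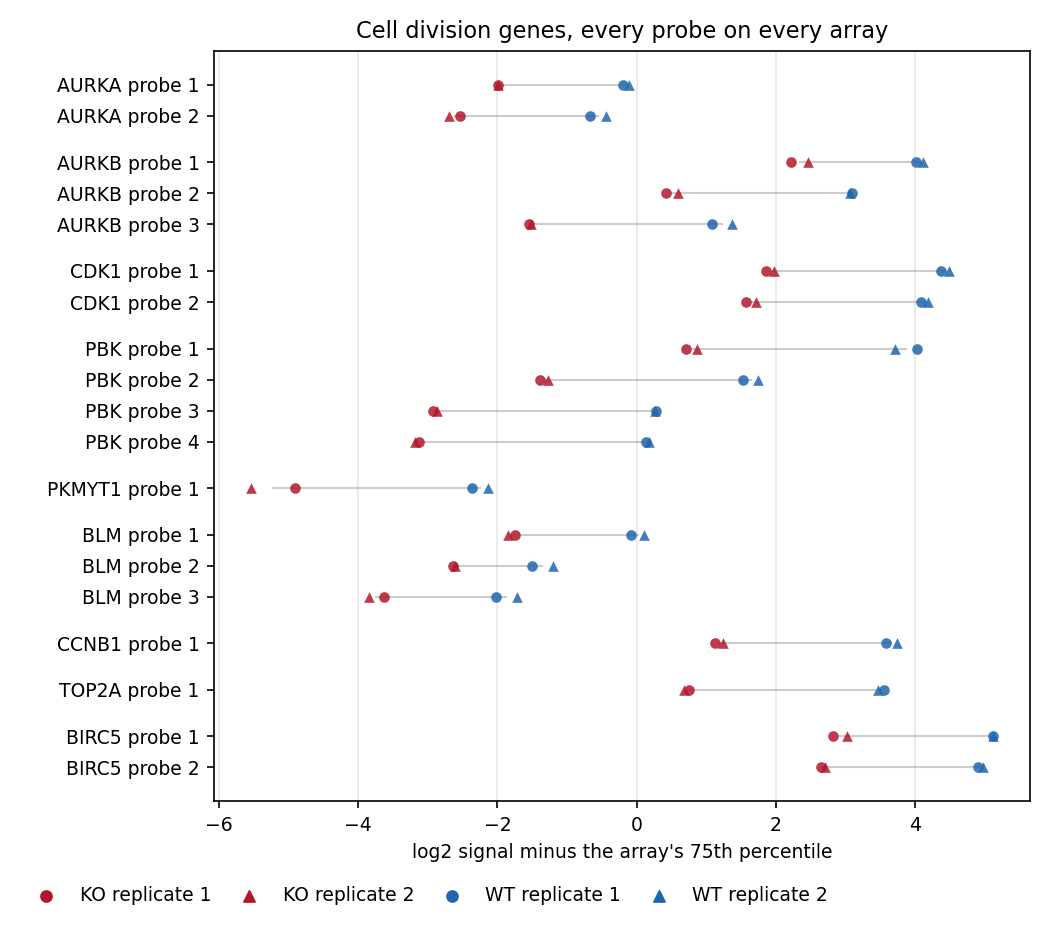
Signal of each of the 19 probes on each of the 4 arrays, on a log2 scale after subtraction of the 75th percentile of the array. Red marks KO and blue WT, circles replicate 1 and triangles replicate 2, grey lines join the means, and probes are numbered within a gene from the brightest. At every probe both KO arrays lie left of both WT arrays, with the smallest gap at the second BLM probe.

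CDK1 is the kinase that drives cells into mitosis. Its brighter probe had signals of 1.86 and 1.98 in KO against 4.37 and 4.50 in WT. The KO mean was 1.92 ± 0.08 (SD, n = 2) and the WT mean 4.43 ± 0.09 (SD, n = 2), so that WT thymus held 5.70 times the KO signal. The log2 fold change was -2.51 (SE 0.16, adjusted p = 0.00209 in limma). The second CDK1 probe fell by 2.49, which differs from the first by 0.02.

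CCNB1 encodes cyclin B1, the partner that activates CDK1. It had 1 probe, with 1.13 and 1.24 in KO and 3.59 and 3.74 in WT. Its log2 fold change was -2.47 (SE 0.16, adjusted p = 0.00214 in limma), close to that of its kinase. Both KO values were at least 2.34 below both WT values.

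PKMYT1 is a membrane-bound kinase that holds CDK1 inactive until mitosis begins. Its only probe was the dimmest of the 19 in scanner units, with raw signals of 25.2 and 14.8 in KO and 120 and 157 in WT. After normalization these were -4.91 and -5.53 in KO and -2.37 and -2.14 in WT, and the gene fell by 2.97 (SE 0.27, adjusted p = 0.00316 in limma). The KO arrays differed by 0.63 here, the widest gap between KO arrays among the 19 probes. The size of this fall depended on the processing. With the normexp background correction, which added an offset of 50 before quantile normalization, the log2 fold change was -1.34, still called. Quantile normalization alone gave -3.24. The background correction and the offset were not tested apart. The activating cyclin and the inhibitory kinase thus both fell with CDK1.

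The Aurora kinases act at different places in mitosis. AURKA, which works at centrosomes and the spindle poles, had -1.994 and -1.997 in KO and -0.20 and -0.12 in WT at its brighter probe. Its log2 fold change was -1.84 (SE 0.15, adjusted p = 0.00273 in limma), and the second AURKA probe fell by 2.05. The KO arrays were almost the same at the brighter probe, and the WT arrays were 0.08 apart.

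AURKB is the kinase of the chromosomal passenger complex, which corrects faulty attachment of chromosomes and controls the final separation of the daughter cells. Its brightest probe had 2.22 and 2.47 in KO and 4.01 and 4.12 in WT, and fell by 1.72 (SE 0.17, adjusted p = 0.00387 in limma). The other AURKB probes fell further. The second had 0.43 and 0.60 in KO and 3.09 and 3.06 in WT, and the third had -1.55 and -1.51 in KO and 1.08 and 1.38 in WT. Their log2 fold changes were -2.56 and -2.76, so that the probes of this gene spanned 1.04, the widest span within any of the 9 genes. When the AURKB probes were averaged, its log2 fold change was -2.35. All AURKB probes carry the same accession, and which transcripts each detects was not tested.

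BIRC5 encodes survivin, which sits in the same passenger complex and belongs to the family of inhibitors of apoptosis proteins. Its probe with the higher mean had 2.83 and 3.03 in KO and 5.12 in both WT arrays. The log2 fold change was -2.19 (SE 0.16, adjusted p = 0.00241 in limma), and the second BIRC5 probe fell by 2.27. Both genes of the passenger complex were thus lower in KO at all of their probes.

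PBK, a mitotic kinase also called TOPK that is found mainly in proliferating tissues, fell most. Its brightest probe had 0.71 and 0.87 in KO and 4.04 and 3.71 in WT. The gene fell by 3.08 on the log2 scale (SE 0.19, adjusted p = 0.00208 in limma). WT thymus had 8.48 times the KO signal. The other 3 PBK probes had log2 fold changes of -2.97, -3.17 and -3.31. Only 1.31% of all tested probes fell further than the last of these.

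**Figure D2:**
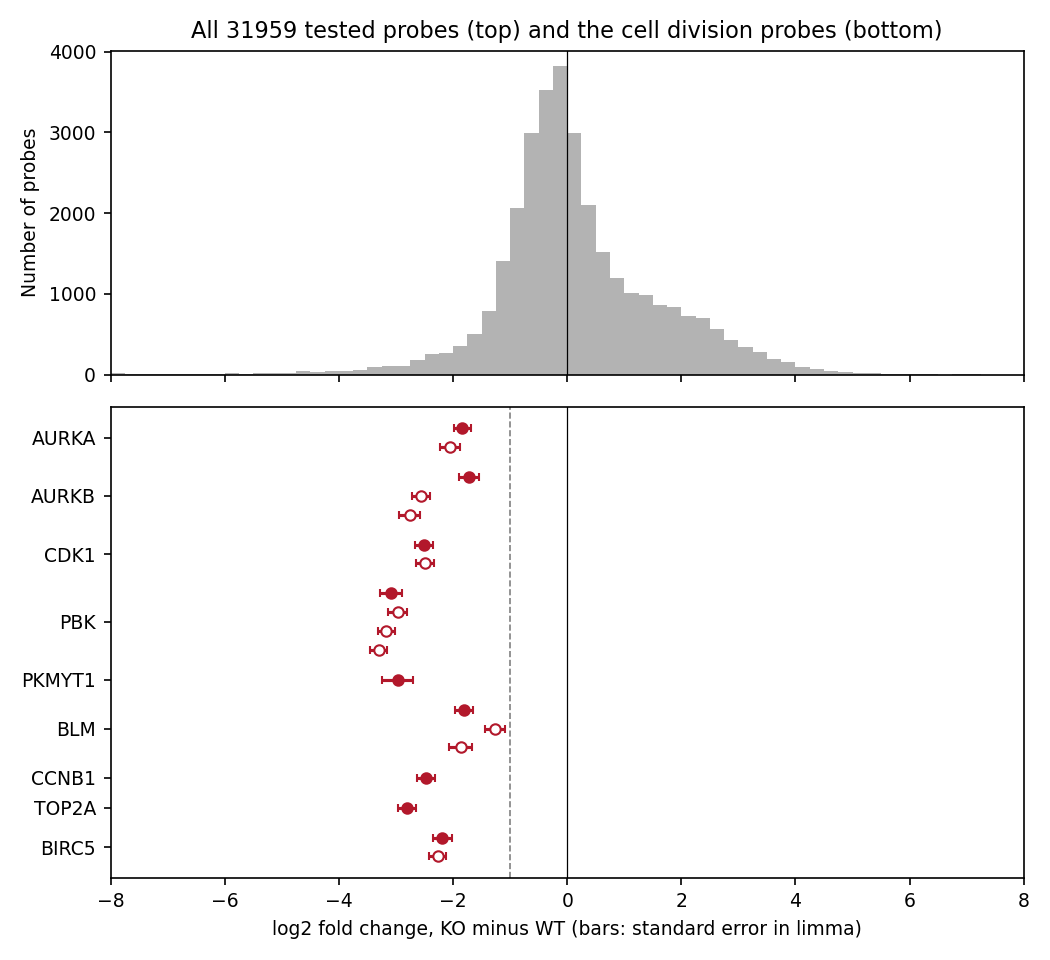
Top, distribution of the log2 fold change over the 31959 tested probes, with the few values beyond 8 in either direction put in the outermost bins. Bottom, log2 fold change of each of the 19 probes with its standard error in limma, filled for the probe with the highest mean signal of a gene and open for the others, and a dashed line at a 2-fold fall. The probes lie between -3.31 and -1.27, in the left tail of the distribution, and those of AURKB and BLM spread more widely than those of CDK1, PBK or BIRC5.

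TOP2A encodes topoisomerase II alpha, which untangles replicated chromosomes so that they can be pulled apart. Its 1 probe had 0.75 and 0.68 in KO and 3.56 and 3.47 in WT. The log2 fold change was -2.80 (SE 0.15, adjusted p = 0.00205 in limma), a 6.99-fold difference. The arrays of either genotype lay within 0.10 of each other.

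BLM is the helicase mutated in Bloom syndrome, which dissolves recombination intermediates between sister chromatids. At its brightest probe the signals were -1.75 and -1.85 in KO and -0.07 and 0.10 in WT. It fell by 1.81 (SE 0.16, adjusted p = 0.00316 in limma). The second BLM probe fell by 1.27 (SE 0.18, adjusted p = 0.00803 in limma), the smallest fall of the 19 probes, and the third had a log2 fold change of -1.87. At the second probe the KO arrays had -2.63 and -2.61 and the WT arrays -1.51 and -1.20, so that the groups stayed apart, with the smallest gap of the 19 probes.

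In the order of their falls the genes ran PBK, PKMYT1, TOP2A, CDK1, CCNB1, BIRC5, AURKA, BLM and AURKB. Of the 8 pairs of neighbours in this order, 5 differed by less than the combined standard error of the pair. The widest step, 0.35 between BIRC5 and AURKA, was 1.57 times its combined standard error. No test between genes was run. The place of AURKB at the end of the order rests on its brightest probe, since both others fell further.

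The arrays of 1 genotype resembled each other closely at these probes. The KO arrays differed by a median of 0.11 and at most 0.63, and the WT arrays by a median of 0.13 and at most 0.32. Over all tested probes the median differences were 0.16 and 0.30. KO replicate 1 was below KO replicate 2 at 12 of the 19 probes, and WT replicate 1 below WT replicate 2 at 15. With 1 probe per gene these counts were 5 and 7 of the 9 genes. Over all tested probes the shares were 51.6% and 50.1%. Within the first slide KO minus WT ran from -3.30 to -1.43 with a median of -2.61, and within the second from -3.32 to -1.10 with a median of -2.37. With either WT array left out, all 19 probes were still called lower. With either KO array left out 18 were, and the second BLM probe was not, at adjusted p values in limma of 0.0659 without KO replicate 1 and 0.0656 without KO replicate 2. At the probe with the highest mean signal, each of the 9 genes was called with any 1 array left out, and the largest adjusted p was then 0.0361, for AURKB in limma.

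Further genes of the cell cycle were read from lists, and most listed genes had no named probe. Of 71 other genes of mitosis 7 were tested, and all 7 were lower, at a median of -2.41 on the log2 scale. CDC20, which activates the ubiquitin ligase that ends mitosis, had -1.11 and -0.99 in KO and 2.21 and 2.20 in WT and fell by 3.26 (SE 0.15). STMN1, which destabilises microtubules, fell by 2.93 (SE 0.18), and CCNB2, the second B-type cyclin, fell by 2.67 (SE 0.16). The others, MYBL2, HMGB2, CKS1B and CDC25C, were lower too, with log2 fold changes of -2.41, -2.14, -1.34 and -1.31. CDC25C is the phosphatase that removes the inhibitory mark set by PKMYT1. Across the 7 genes the adjusted p in limma was at most 0.00838, and 12.5% of the 2702 named genes tested were called lower.

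Genes of DNA replication were lower at a smaller median, and the difference between the lists was not tested. PRIM2 and PCLAF, which are named below, were not on this list. Of 52 listed genes 4 were tested. Each of these 4 was called lower, compared to 12.5% of all named genes tested, and their median log2 fold change was -1.69. ASF1B, a histone chaperone, fell by 2.67 (SE 0.18), PRIM1, a subunit of the primase, fell by 1.69 (SE 0.15), and DNMT1, which copies DNA methylation to the new strand, fell by 1.68 (SE 0.15). DBF4, the activator of the CDC7 kinase, fell by 1.63.

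Among 32 genes of homologous recombination and damage signalling, where BLM acts, 4 were tested and 1 was lower. RAD54L, a motor protein of recombination, had -2.92 and -2.94 in KO against -0.08 and -0.09 in WT and fell by 2.85 (SE 0.15). RAD52, CHEK2 and ATM were not called, with log2 fold changes of -0.66, -0.49 and 0.32. The median of the 4 was -0.57.

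Of 21 listed inhibitors of the cell cycle 9 were tested, 2 (22.2%) were lower, none was higher, and the median was -0.27. Over all named genes tested, 12.5% were called lower and 25.2% higher. BTG2, an antiproliferative gene, had 3.61 and 3.26 in KO and 5.92 and 6.44 in WT and fell by 2.75 (SE 0.26). CDKN3, a phosphatase of CDK1 and CDK2 whose own mRNA peaks in dividing cells, fell by 2.58 (SE 0.18). The 7 that were not called lay between -0.96 and 0.30. With arrays scaled to the median 3 of the 9 were lower.

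Relatives of the 9 genes were read as well. Of 28 such paralogues 5 were tested and 2 (40.0%) were lower, compared to 12.5% of all named genes tested. The lower paralogues were CCNB2 and TOP2B, and TOP2B fell by 1.75 (SE 0.15). TOP2A and TOP2B are similar in sequence, and whether their probes bind both mRNAs was not tested. CDK4 and CDK5 had log2 fold changes of -0.86 and -0.72, under 2-fold, and XIAP, the relative of BIRC5, had 0.43. The difference between any of these genes and its relative was not tested.

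**Figure D3:**
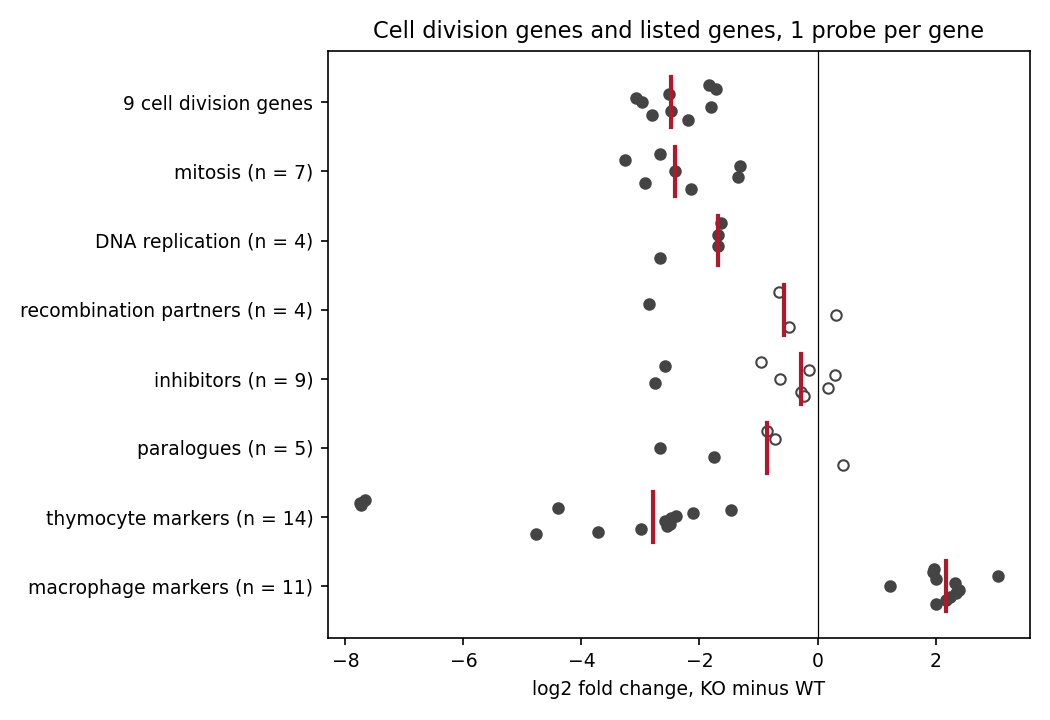
Log2 fold change of the 9 genes and of the listed genes that could be tested, 1 probe per gene, with n the number of genes. Filled points were called in limma at an adjusted p under 0.05 with at least a 2-fold change, open points were not, and red bars are medians. The medians of the 9 genes (-2.47), the mitosis list (-2.41) and the thymocyte markers (-2.79) lie well left of that of the inhibitors (-0.27), and CCNB2 appears in both the mitosis and the paralogue rows.

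Markers of cell types moved in the same comparison. All 14 of 20 thymocyte markers that could be tested were lower, with a median of -2.79. Of all named genes tested 12.5% were called lower. The CD3 chains CD3D, CD3E and CD3G and CD247 were lower, with log2 fold changes of -2.12, -2.39, -2.48 and -2.99, a range that overlaps that of the cell division genes. RAG1, RAG2 and PTCRA, which serve receptor rearrangement and the pre-T-cell receptor, had log2 fold changes of -7.67, -7.76 and -7.73. The summed linear signal of the 14 markers, in multiples of the 75th percentile of the array, was 43.0 to 44.3 in KO and 300 to 408 in WT. For the 9 cell division genes the same sum was 21.5 to 23.97 in KO and 114 in both WT arrays. Bright probes weigh most in such sums, which compare KO with WT within a list and not 1 list with another. RAG2 was not well above background on 1 KO array, and its signals in KO were -5.91 and -7.77.

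Of 15 macrophage markers 11 were tested and all 11 were higher, with a median of 2.17 and sums of 357 to 462 in KO and 98.0 to 126 in WT. Scaling to the median left 10 of the 11. Fewer were also called with either KO array left out. The median was then 2.32 without KO replicate 1 and 2.13 without KO replicate 2. Also called higher in KO were 5 of 6 tested endothelium, 3 of 4 epithelium, 3 of 4 fibroblast and 5 of 8 adipocyte markers. Of the 2702 named genes tested 25.2% were called higher and 12.5% lower. Not called were ENG (log2 fold change 0.47), EPCAM (0.37), THY1 (0.81), LPL (0.48), LEP (0.40) and CIDEC (3.73). None of the 16 EPCAM probes was called. Several of these marker counts, that of epithelium among them, fell when 1 array was left out, which leaves 1 array of its genotype. The epithelium median log2 fold change was 1.73 with all arrays, 1.68 without KO replicate 1 and 1.77 without KO replicate 2. With either KO array left out the fibroblast count was 0 and the endothelium count 3, and without WT replicate 2 the fibroblast count was 1. The fibroblast count was also 1 with the replicate number as a block and with no filter on dim probes. The adipocyte count was 0 without KO replicate 2 and 1 without WT replicate 2. Of 7 B-cell markers 4 were tested, with CD79A and MS4A1 lower, BLNK higher and BTK not called. With either KO array left out BLNK was not called, and with WT replicate 1 left out the count of higher markers was 2. The part that these shifts in cell type markers have in the falls of the cell division genes was not tested.

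The profile over the 4 arrays that came closest to the mean profile of the 9 genes, among named genes outside all lists, was that of PRIM2, the second primase subunit. Its signals were -1.08 and -0.92 in KO and 1.28 and 1.30 in WT, and it fell by 2.29 on the log2 scale. Likeness was measured as the root mean square distance between signals centred on their mean, and was 0.07 for PRIM2. FUT8 (0.08), PCLAF (0.08), NRM (0.09) and ADGRG1 (0.10) came next, with log2 fold changes of -2.43, -2.46, -2.43 and -2.25. FUT8 is a fucosyltransferase, PCLAF a PCNA-binding factor of replicating cells, NRM a protein of the nuclear membrane and ADGRG1 an adhesion G protein-coupled receptor. Of the 2610 genes compared, 57 lay nearer to the mean profile than PBK, the most distant of the 9 genes. With 4 arrays such closeness describes little more than a similar fall and a small spread.

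**Figure D4:**
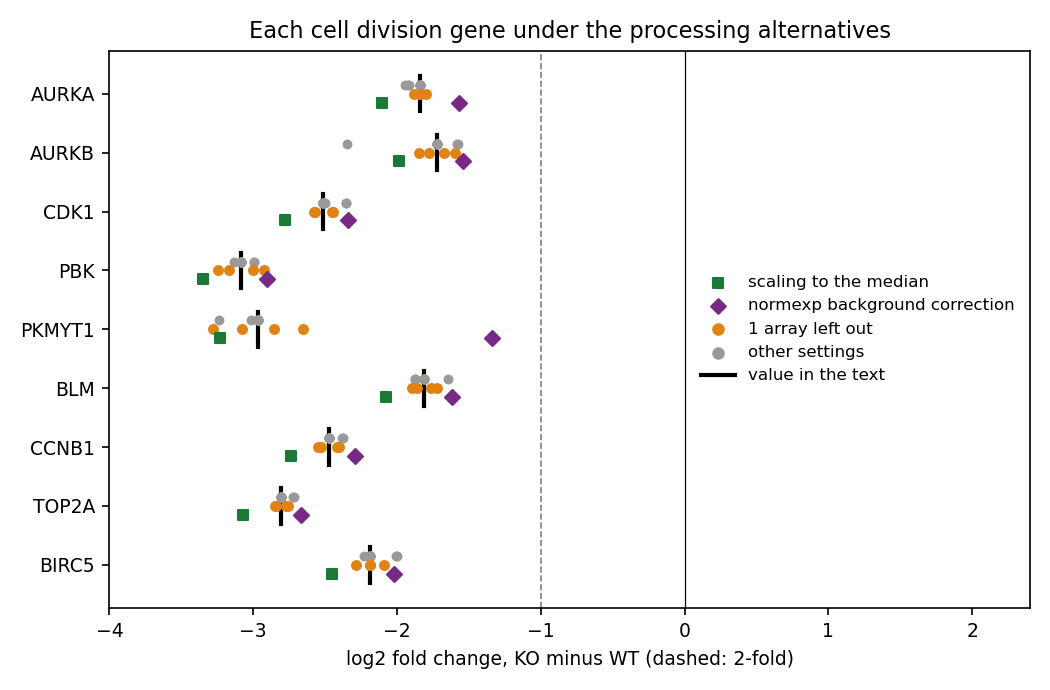
Log2 fold change of each of the 9 genes as given in the text (black bar), with arrays scaled to the median (green), with the normexp background correction (purple), with 1 array left out (orange) and under the other settings (grey). Every value lies left of the dashed line at a 2-fold fall, and the widest move is that of PKMYT1, from -2.97 to -1.34 with normexp.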

How the data were processed

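The deposited intensity values came from Agilent Feature Extraction 11.0.1.1, which had subtracted the background, and were not normalized between arrays. The authors also deposited a log2 table of the same arrays, whose values tracked the log2 scanner signal with Pearson's r of at least 0.9998 and whose columns share 1 distribution. The methods name GeneSpring and do not state the normalization. They describe 2 dyes, whereas labels and scanner files hold Cy3 alone.

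Control and outlier spots were left out, log2 signals were set relative to the 75th percentile of their array, and spots of a probe were averaged. Probes that both arrays of KO, of WT or of either showed well above background were fitted with limma 3.58.1 in R 4.3.3, without a block, and p values were adjusted by Benjamini-Hochberg over all 31959. Tables and plots were made in Python 3.11.15 with matplotlib 3.10.9. The procedure was tested on simulated data. Accessions were named through the RefSeq table of Sscrofa11.1, used for names alone. CYBB is listed there as GP91-PHOX. Probe and promoter sequences were not used here, and a planned promoter motif search was not run.

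The study names 2 KO pigs with a thymus, but the labels do not say that replicates are separate animals, and the p values measure the spread between these samples, which may be technical. The number of arrays limits the precision: for a single gene, 0.333 is the smallest two-sided p of an exact permutation test. The 9 genes and all lists were chosen with earlier results of these data known. A few listed genes are not reported here, and the lists were counted without them. Named were the 9 genes, IL2RG and the 5 nearest profiles. In each list the 3 largest called falls and rises were named, and any not called where these were 5 or fewer. The exception was the called rises of macrophage, endothelium, epithelium, fibroblast and adipocyte markers, which were counted without names. The remaining mitosis genes, DBF4, the CD3 chains and CD247 were added after their values were seen. The alternatives were other scalings, background corrections, filters, blocks, thresholds and tests, the deposited log2 values, averaged probes and each array left out. The count over all 19 probes was added after the values were seen.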

Additional observations from a re-analysis of the deposited data

How the results depend on the processing

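All 9 genes had a negative log2 fold change under every setting tried, and the settings that ended the call of a gene were the methods' t-test and a limit of 4-fold, which AURKA, AURKB and BLM did not reach (6 of 9 genes and 14 of 19 probes called). The second BLM probe also lost its call with normexp, at -0.99, and with either KO array left out (18 of 19 probes each). The t-test, on the same values, called 0 of the 9 genes after the Bonferroni correction and 5 after Benjamini-Hochberg (AURKA, CDK1, CCNB1, TOP2A and BIRC5), 0 and 12 of the 19 probes, and at an unadjusted p under 0.05 all 9 genes and all 19 probes. Over all 31959 tested probes it called 1 lower and 0 higher with Bonferroni, and 726 lower and 687 higher with Benjamini-Hochberg. With Bonferroni it called 0 genes of the mitosis, DNA replication, recombination, inhibitor and paralogue lists, and its calls among the cell type markers were not counted. With Benjamini-Hochberg it called 4 of the 7 mitosis genes and 0 inhibitors. Limma with a 4-fold limit called 1 gene each for DNA replication and the paralogues, and without a fold limit 2 recombination genes, 4 inhibitors and 4 paralogues as lower. Of all 31959 tested probes, 1310 were lower with the 4-fold limit and 7226 without a fold limit. The median of the 9 genes was -2.74 with arrays scaled to the median and -2.02 with normexp. The former setting shifts every log2 fold change by the same amount, and moved the median over all probes from -0.05 to -0.32. The distance of the 9 genes from that median, -2.42, could therefore not change. This distance was -2.22 with quantile normalization, -2.21 with the deposited log2 values and -1.94 with normexp. With the replicate number as a block (replicate block) 9 of the 9 genes were called, and of the list counts the fibroblast markers alone moved by over 1.5 times, from 3 to 1. Same-numbered arrays deviated in opposite ways (r = -0.29 over probes). The crossed pairing is that of the slides, which as a block called 4223 probes lower and 6929 higher. Leaving out 1 array kept the median of the 9 genes between -2.55 and -2.40, while the count of lower probes over the whole array ranged from 2081 without KO replicate 2 and 2164 without KO replicate 1 to 5109 without WT replicate 1, and was 2594 with normexp.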
